A study of Mus musculus with 3 samples.

Results

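In control siRNA cells, the light polysome array was compared with the top-fraction array, and the comparison covered 11085 genes of the 27745 gene names on the array. A gene was a member when at least 1 of its probes was well above background in the control channel on both arrays, which held for 14669 of 41174 probes. The cells were cultured lymph node stromal cells of the mouse strain BALB/c, the fibroblast-like scaffold cells of the lymph node. They had received 400 pmol of control siRNA with Lipofectamine 2000, the medium was renewed after 24 h, and lysates were made at 48 h. Cells of 7 dishes in the control group were combined into a single lysate before the 10% to 60% sucrose gradient, so no spread between cultures was kept. The gradient was collected in fractions and combined into 3 RNA samples (top, light polysomes and heavy polysomes), and 200 ng of each was labelled. Each fraction was hybridised to 1 array of a 2-colour design, with the control RNA in Cy3 and RNA of cells given Eif4g3 siRNA in Cy5. There was 1 array per fraction, so no test across arrays was possible and genes are described by size, with 2-fold as the limit.

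In a sucrose gradient mRNAs sediment by the number of ribosomes they carry. The top of the gradient holds RNA with no or few ribosomes, together with small ribonucleoprotein particles, and the light polysomes hold mRNAs on which few ribosomes are translating. Short open reading frames have room for few ribosomes, and mRNAs whose initiation is held back, such as those of ribosomal proteins in resting cells, are known to collect at the top. A value here is the log2 of the normalized light signal over the normalized top signal, averaged over the probes of a gene. Signals were forced to the same distribution on both arrays (quantile normalization), so a value places an mRNA relative to all others, and a difference in total mRNA between fractions cannot be seen.

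The stromal identity of the cells was checked with marker genes. Of 14 fibroblastic stromal markers, 12 were well above background on the top array and 12 on the light array, among them Pdgfrb, Thy1, Col1a1 and Pdpn. Of 9 endothelial markers 0 were detected on the top and 3 on the light array, the highest raw light signal being 99.4. Of 12 leukocyte markers 1 and 4 were detected, with Ptprc, the pan-leukocyte gene, below detection on both arrays. Of 5 epithelial markers 0 and 1 were detected. Smooth muscle and pericyte markers were detected for 5 and 6 of 7 genes, with raw signals of Acta2 of 12889 and 62852. In a pooled lysate, few cells of a type and little RNA per cell cannot be told apart. The follicular chemokine gene Cxcl13 was not detected in any control fraction. The top array was the dimmest, with 36.4% of probes well above background against 51.1% on the light array, and the median raw signal of the probes used was 83.3 on the top and 659.5 on the light array. No probe used was saturated.

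Of the 11085 genes, 1259 were at least 2-fold higher in light polysomes (11.4%) and 1373 were at least 2-fold higher in the top fraction (12.4%), while 8453 lay within 2-fold. The tails were unequal. At least 4-fold, 110 genes were higher in light polysomes and 342 in the top fraction, and at least 8-fold the numbers were 6 and 90. The split between the sides depended on the scaling. Of all genes past 2-fold, 47.8% were on the light side, against 19.1% when each array was centred on its median and 28.1% when it was scaled to its 75th percentile. These scalings moved the median of all genes from 0.03 to -0.31 and -0.16, so medians of gene groups are given below relative to the median of all genes as well. The precision within an array was estimated from repeats. For 109 probes printed 8 or more times, log2 light over top had a median SD of 0.07 between spots, and between different probes of a gene, over 2909 genes, the median SD was 0.50.

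**Figure D1:**
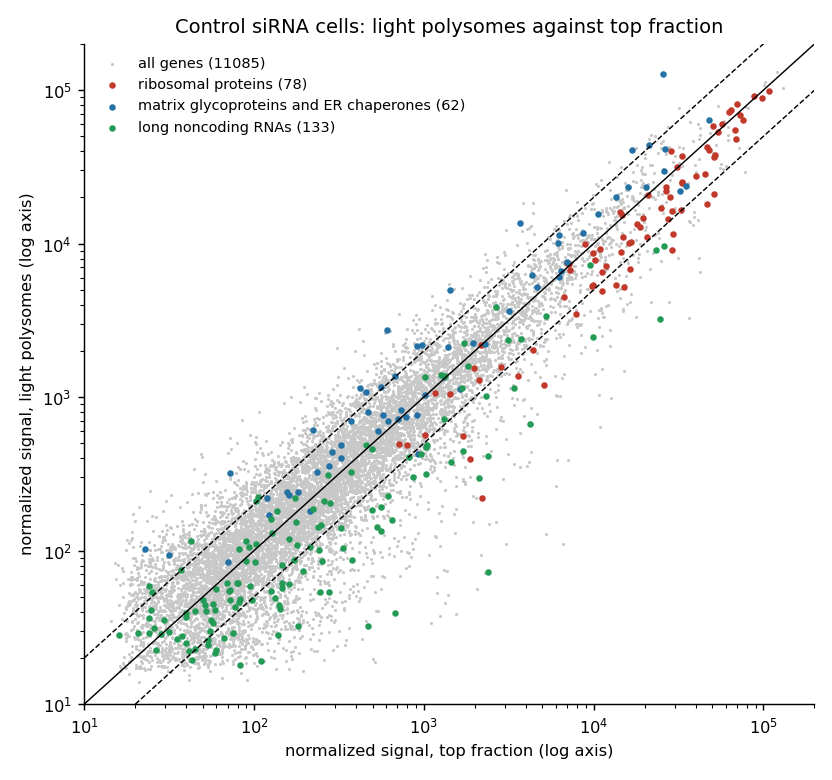
Normalized control-channel signal of each of 11085 genes in the top fraction (horizontal, log axis) and in light polysomes (vertical, log axis), with the line of equal signal and dashed lines at 2-fold. The 78 ribosomal protein genes lie at the bright end and mostly below the line, a direction that was lost under loess with Aquantile scaling, the 133 long noncoding RNAs lie mostly below it, and Spp1 is the brightest point above the upper dashed line.

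Among genes with at least the median signal and 2 or more agreeing probes, those highest in light polysomes were led by Plp2, which encodes a small membrane-spanning proteolipid. Its signal was 107 in the top fraction and 802 in light polysomes, a log2 difference of 2.90, and its 2 probes gave 2.88 and 2.93. Serpinb2, plasminogen activator inhibitor 2, went from 165 to 1003 (2.60). Plaur, the urokinase receptor, went from 906 to 3448 (1.93). Lpp, a focal adhesion protein, had 151 and 911 (2.60), but its 3 probes ranged from 1.31 to 3.84. Brp44l, the mitochondrial pyruvate carrier subunit now named Mpc1, had 232.5 and 992 (2.09).

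The other genes of the 15 were as follows. Ccnd2, cyclin D2, had 1167 in the top and 3986 in light polysomes (1.77), and its 3 probes spanned 1.66 to 1.87. Tfdp1, the dimer partner of E2F transcription factors, had 308 and 1200 (1.96). Ube2m, which conjugates NEDD8 to cullins, had 248 and 944 (1.93). They also held Serpinf1, which encodes the secreted factor PEDF (1.87), Gng5, a G protein gamma subunit (1.86), Arf1, a GTPase of vesicle coating (1.80), Itm2b, a membrane protein cleaved by furin (1.74), Ifitm2, an interferon-induced membrane protein (1.72), Eif5a, the hypusinated translation factor (1.67), and Ywhaq, a 14-3-3 protein (1.63). All 15 had higher signals in light polysomes on every probe measured, which the rule for naming required.

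Among genes with at least the median signal that were read by a single probe, Dstn, the actin-severing protein destrin, had the highest log2 light over top, with 418 in the top and 2769 in light polysomes (2.73). Asah1, lysosomal acid ceramidase, had 103 and 550.5 (2.41). Arf4, a GTPase of vesicle coating, had 439 and 2322 (2.40). Kdelr3, which returns proteins to the endoplasmic reticulum, had 391 and 1991 (2.35). Eef1e1, an accessory protein of the aminoacyl-tRNA synthetase complex, had 205.5 and 1043 (2.34). Leprel2, the collagen prolyl 3-hydroxylase now named P3h3, had 187 and 935 (2.32), and Igfbp7, a secreted binding protein, had 3835 and 18338 (2.26). A single probe gives no check between probes.

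Spp1, the secreted phosphoprotein osteopontin, had the brightest signal of them, with 25773 in the top and 127614 in light polysomes (2.31). Its value was -0.34 under median centring and -0.19 under 75th-percentile scaling, so its direction depended on the scaling. Pgam1, the glycolytic phosphoglycerate mutase, behaved likewise, with 1.17 in the main scaling and -0.21 and -0.06 under these scalings.

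**Figure D2:**
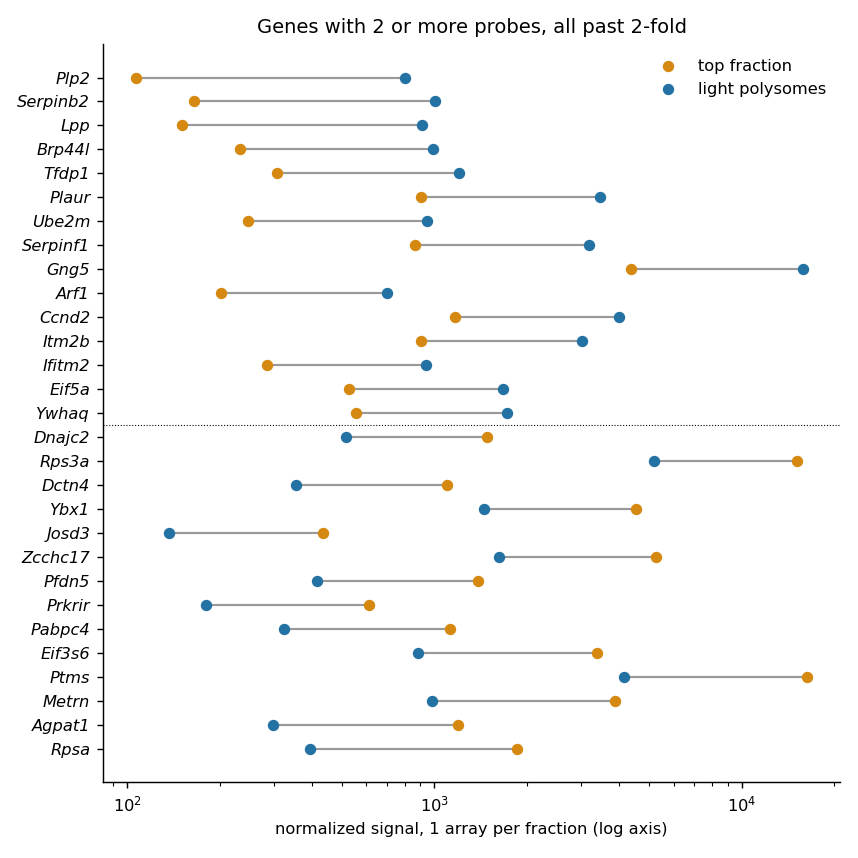
Normalized control-channel signal (log axis, 1 array per fraction) of the 15 highest and 14 of the 15 lowest genes with at least 2 probes past 2-fold on the same side, with orange for the top fraction and blue for light polysomes. Plp2 has the widest gap on the light side (107 to 802) and Rpsa on the top side (1862 to 393), and the dotted line separates the sides.

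On the top side, genes chosen in the same way with agreeing probes were led by Rpsa, the laminin-binding protein of the small ribosomal subunit, with 1862 in the top fraction and 393 in light polysomes (-2.24). Of the other 14 genes, those with a role in translation or on the ribosome are given first. Eif3s6, the initiation factor subunit now named Eif3e, had 3383 and 883 (-1.94). Pabpc4, a cytoplasmic poly(A)-binding protein, had 1123 and 324 (-1.79). Ybx1, an mRNA-packaging cold shock protein, had 4542 and 1452 (-1.65), with 4 probes between -2.34 and -1.08. Rps3a, of the small subunit, had 15136 and 5186 (-1.54). Dnajc2, a chaperone that sits on the ribosome (-1.52), and Zcchc17, a nucleolar protein tied to the large subunit (-1.70), were also among the 15.

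The other genes of this group had varied roles. Agpat1, an acyltransferase of phospholipid synthesis, had 1194 and 298, a 4.01-fold difference. Metrn, the secreted factor meteorin, had 3867 and 979 (-1.98), and its 2 probes gave -2.05 and -1.91. Ptms, the small acidic protein parathymosin, had 16305 and 4149 (-1.97). Prkrir, now Thap12 (-1.77), Pfdn5, a prefoldin subunit (-1.74), Josd3, now Taf1d, of an RNA polymerase I factor (-1.67), and Dctn4, a dynactin subunit (-1.63), also belonged to it.

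Larger differences belonged to genes with a single measured probe, named by the same limit on signal. Rmrp, the RNA component of the mitochondrial RNA processing ribonuclease, had 5236 in the top fraction and 128 in light polysomes (-5.35, or 40.8-fold). It is not translated. P2rx2, an ATP-gated ion channel, had 1556 and 38.9 (-5.32). Fthl17, a ferritin heavy chain-like gene, had 2067 and 56.04 (-5.21). Cyp17a1, the steroid 17-hydroxylase, had 1327 and 45.4 (-4.87). Zfp652 had 3042 and 111 (-4.77), Arid5b 7083 and 387.5 (-4.19), Pabpc2 6089 and 387 (-3.98), and Ddx25, a germ-cell helicase, 1962 and 155 (-3.67). P2rx2, Cyp17a1 and Ddx25 are known mainly from neurons, steroid-making cells and germ cells. Arid5b, Zfp652, Pabpc2 and Ddx25 have other probes on the array that did not pass the filter on both arrays. The measured Zfp652 probe reads a cDNA described in the files as unclassifiable. Whether the probes of these single-probe genes read the annotated mRNAs in these cells was not tested.

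Ribosomal protein mRNAs begin with a short run of pyrimidines after a cytosine, the terminal oligopyrimidine (TOP) motif, through which their translation is switched on and off together. RefSeq starts here are annotated starts, which need not be the start most used in these cells, so the motif itself could not be placed and the letters CTTTCC were searched in its stead. Windows of 30 bases around this pyrimidine run are shown for genes in which it begins between base 1 (Rpl28 and Rpl38) and base 30 (Rpl35a) from the annotated start, chosen to span light over top from -1.25 to 0.21. Capitals mark CTTTCC with a preceding CT where present. Sequences and starts are those of RefSeq on GRCm38.p6, on the strand of the gene, at chr16:33056471-33056500 (plus) for Rpl35a, chr7:45718061-45718090 (plus) for Rpl18, chr7:45128719-45128748 (minus) for Rpl13a, chr17:28328574-28328603 (plus) for Rpl10a, chr7:4792954-4792983 (plus) for Rpl28, chr3:90213630-90213659 (minus) for Rps27 and chr11:114668568-114668597 (plus) for Rpl38.
Rpl35a: ggcttgccttcCTCTTTCCgccatcttggc
Rpl18: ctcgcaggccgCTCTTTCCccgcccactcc
Rpl13a: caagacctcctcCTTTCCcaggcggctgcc
Rpl10a: gcgctctgccttCTTTCCggtttccgcggc
Rpl28: ctctcgtgtctCTCTTTCCgtctccggccg
Rps27: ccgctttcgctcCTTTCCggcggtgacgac
Rpl38: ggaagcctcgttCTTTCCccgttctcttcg

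The values of these genes, whose spread was fixed by that choice, were as follows. Rpl35a had a top signal of 16392 and a light signal of 6889 (-1.25), Rpl18 a log2 value of -0.88, Rpl13a of -0.71, Rpl10a of -0.59 and Rpl28 of -0.20. Rps27, with 64394 and 74192, and Rpl38, with 69873 and 80714, had values of 0.20 and 0.21, and the value of Rpl38 was as low as -2.82 under median centring. The letters CTTTCC, on the strand of the gene within 250 bases before and 50 bases after the start, occurred in 24 of 58 ribosomal protein genes with a sequence (41.4%). Among all 8067 measured genes with a sequence the share was 16.9%, and over all 32851 promoters of the table it was 14.1%. On the other strand the shares were 17.2% for ribosomal protein genes and 16.3% for all measured genes. The overlapping run CTCTTT gave 39.7% and 12.2%. Within the ribosomal protein genes, CTTTCC was present in 4 of 12 that were at least 2-fold higher in the top fraction and in 20 of 46 within 2-fold. Over all genes it was present in 15.7% of those at least 2-fold higher in the top and in 16.1% of those at least 2-fold higher in light polysomes, both near the share of all measured genes.

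Of 32 small-subunit genes, 9 were at least 2-fold higher in the top fraction and 0 in light polysomes, and of 46 large-subunit genes the counts were 6 and 0. The background was 12.4% and 11.4% of all genes. Their medians were -0.42 and -0.50, which is 0.46 and 0.53 below all genes, but under loess with Aquantile normalization both medians lay above all genes, by 0.04 and 0.05. Median centring gave the other extreme, with medians of -2.40 and -1.99. These counts are 28.1% and 13.04% of the members, the latter near the background. The placement of the family relative to other mRNAs thus depended on the scaling. The order within the family was wide. Rps4x had 5123 and 1191 (-2.10), though its 2 probes gave -3.41 and -0.80, and Rps21, with 3 probes, had 29429 and 11541 (-1.35).

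In the large subunit, Rpl21 had 2215 and 219 (-3.34), Rpl30 had 28978 and 9098 (-1.67) and Rpl4 had 1711 and 557 (-1.62). At the other end were genes whose values turned negative under median centring and 75th-percentile scaling where they were recomputed (Rps27l, Rps29, Rpl38 and Rpl8). Rps27l, a p53-induced relative of Rps27, had 28517 and 40347 (0.50). Rpl41, the smallest ribosomal protein, had 88513 and 91990 (0.06). Rps29, another short member, had 62498 and 72534 (0.21), and both of these had much lower heavy than light signals, with log2 heavy over light of -2.39 for Rps29 and -2.45 for Rpl41. Many ribosomal protein genes have near-identical processed copies, and the probes may not tell these apart.

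Other mRNAs with a TOP motif, chiefly elongation factors, had a median of -0.38. Of 17, 3 were at least 2-fold higher in the top fraction (17.65%, against 12.4% of all genes) and 0 in light polysomes. The median stayed below that of all genes under the 10 alternatives (by 0.12 to 1.503). Tpt1, the translationally controlled tumour protein, had 13828 and 4921 (-1.49). Gas5, a noncoding host gene of small nucleolar RNAs that carries a TOP motif, had 25945 and 9630 (-1.43). Eef1b2 had 24083 and 11654 (-1.05), and Eef1a1, which delivers aminoacyl-tRNA, had 11898 and 7062 (-0.75). Eef2, the translocation factor, had 303 and 202 (-0.58) and Pabpc1 had 50763 and 39102 (-0.38), which was 0.42 under loess with Aquantile. Eef1d (0.19) and Nap1l1, a histone chaperone with 1133 and 1908 (0.75), were above 0, but Eef1d was below 0 under 4 of the 10 alternatives.

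Genes of the Eif name series had a median of 0.18. Of 50, 7 were at least 2-fold higher in light polysomes and 4 in the top fraction, against 11.4% and 12.4% of all genes. The list also held Argonaute genes (Eif2c), kinases (Eif2ak) and inhibitors of cap binding (Eif4ebp), so its counts do not describe initiation factors alone. Its light side included Eif2ak3 (1.62), Eif2c3 (1.16) and Eif5a (1.67). The 3 eIF4G genes, scaffolds of the cap-binding complex, were all above 0. Eif4g1 had 89.2 in the top and 370.0 in light polysomes (2.05, 1 probe). Eif4g2, the cap-independent relative, had 478 and 1106 (1.21), and its 4 probes ranged from -0.28 to 2.23. Eif4g3, the siRNA target in the other channel, had 243 and 452 (0.90), with probes at 0.83 and 0.96. Eif4ebp3, an inhibitor of cap binding, had 26.2 and 101.5 (1.95). Eif2c4, the Argonaute gene Ago4, had -1.95, but 0.39 when probes below background were kept, and Eif5 had -1.25 as the mean of 3 probes between -4.22 and 0.24.

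Aminoacyl-tRNA synthetases, which charge tRNAs, had a median of 0.38, which is 0.35 above all genes and stayed above under the alternatives (0.05 to 0.50). Of 20 genes, 4 were at least 2-fold higher in light polysomes (20%, against 11.4% of all genes) and 0 in the top fraction (against 12.4%). Farsb had 17.8 and 117 (2.71), at the dim end of the top array, and Iars had 90.2 and 281.5 (1.64). Sars, with 8326 and 5359 (-0.64), and Wars, with 1066 and 735 (-0.54), were the lowest. Mitochondrial ribosomal proteins, which are encoded in the nucleus and translated on cytosolic ribosomes, had a median of 0.09. Of 74, 5 were at least 2-fold higher in light polysomes and 2 in the top fraction. Both shares (6.8% and 2.7%) were below the 11.4% and 12.4% of all genes. Relative to all genes, the sign of that median changed under median centring and 75th-percentile scaling. Mrpl37, with 51.2 and 235 (2.20), and Mrpl21, with 1624 and 576 (-1.50), were its ends.

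**Figure D3:**
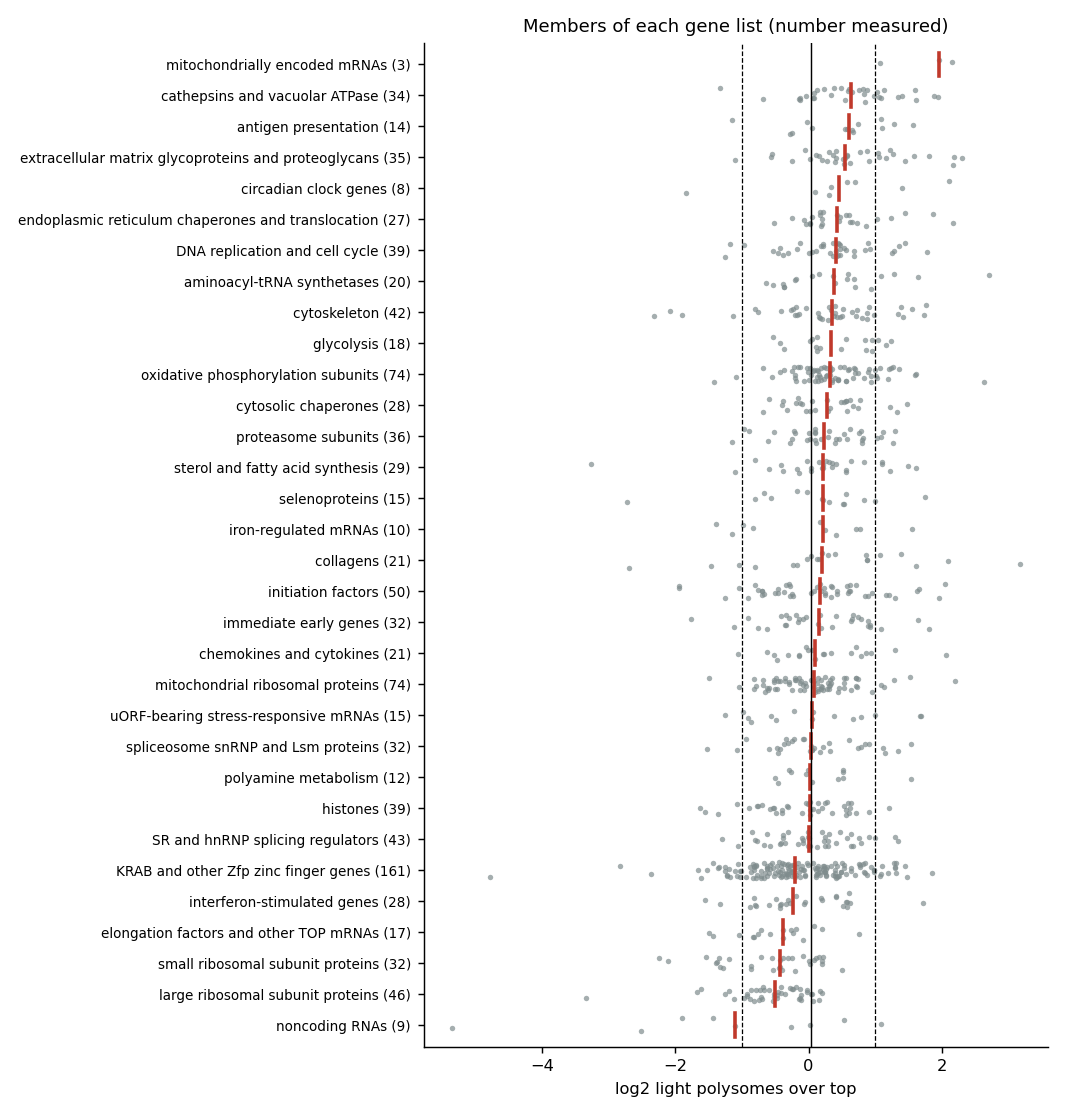
Log2 light over top of every measured member (grey points) of 32 gene lists, ordered by their median (red bars), with the median of all genes as a solid line and 2-fold as dashed lines. Noncoding RNAs (-1.10) and both ribosomal protein lists (-0.50 and -0.42) have the lowest medians, the latter with the sign lost under loess with Aquantile scaling, and the mitochondrially encoded mRNAs (1.95), cathepsins and vacuolar ATPase (0.63) and antigen presentation (0.61) the highest.

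Secreted and matrix proteins are the main products of stromal fibroblasts. Matrix glycoproteins and proteoglycans had a median of 0.55. Of 35, 11 were at least 2-fold higher in light polysomes (31.4%, against 11.4% of all genes). In the top fraction 1 was (2.9%, against 12.4% of all genes). Relative to all genes the median was 0.52 higher and stayed higher under the 10 alternatives (0.25 to 0.62). Mmp2, gelatinase A, had 71.9 and 322 (2.16), and Nid2, a basement membrane nidogen, had 22.7 and 103 (2.18). Loxl1, a collagen and elastin crosslinking oxidase, had 1424 and 4966 (1.80), and Lox, its relative, had 1.16. Fbln1, fibulin 1, was the exception with 925 and 429 (-1.11), and its 2 probes agreed at -1.17 and -1.04. Serpinh1, the collagen chaperone HSP47, had 34919 and 23632 (-0.56).

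Of 21 measured collagen genes, 5 were at least 2-fold higher in light polysomes (23.8%, against 11.4% of all genes). In the top fraction 3 were (14.3%, near the 12.4% of all genes). Col6a1 had 19.3 and 174 (3.17), which rests on a dim top signal. Col4a2, of the basement membrane, had 104 and 441 (2.09). Among fibrillar collagens, Col1a1, Col1a2 and Col3a1 were within 2-fold. Col1a2 had 9913 and 18284 (0.88), Col3a1 had 3355 and 6139 (0.87), and Col1a1 had 1248 and 1226 (-0.03), with 3 probes from -0.55 to 0.72. Under alternatives all of them changed sign at least once. Col4a4 (-2.70) and Col2a1 (-1.47), the cartilage collagen, were lowest. The median of 0.20 was above that of all genes under each alternative (by 0.06 to 0.82).

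Chaperones and translocation factors of the endoplasmic reticulum had a median of 0.43. Of 27, 5 were at least 2-fold higher in light polysomes (18.5%, against 11.4% of all genes). In the top fraction 0 were, against 12.4% of all genes. Relative to all genes the median stood 0.40 higher, and 0.16 to 0.48 higher under the alternatives. P4hb, protein disulfide isomerase, had 611 and 2737 (2.16), and Hspa5, the chaperone BiP, had 3702 and 13550 (1.87). Ssr2 (1.45), Pdia6 (1.24) and Pdia4 (1.03) were the other 3. Hyou1, with 1633 and 1138 (-0.52), and Calr, with 910 and 768 (-0.24), were lowest. Both were higher in heavy than in light polysomes, with log2 values of 1.26 and 0.83.

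For the lysosomal list of cathepsins and vacuolar ATPase subunits the median was 0.63, which is 0.60 above all genes (0.36 to 0.79 under the alternatives). Of 34, 10 were at least 2-fold higher in light polysomes (29.4%, against 11.4% of all genes). In the top fraction 1 was (2.9%, against 12.4% of all genes). Ctsk, a collagen-degrading cathepsin, had 51.6 and 198 (1.94), and Psap, the saposin precursor, had 1.62 over 2 probes. Atp6v1b2 had 16.4 and 60.1 (1.88), at the dim end of the top array, and was past 2-fold under 5 of 9 alternatives (lowest 0.48). Antigen presentation genes had a median of 0.61, with 4 of 14 at least 2-fold higher in light polysomes and 1 in the top fraction. These shares were 28.6% and 7.1%, against 11.4% and 12.4% of all genes. H2-T23 had 880 and 2607 (1.57), and H2-D1 had 496 and 1213 (1.29) with its 2 probes at 1.26 and 1.32. Psmb10, a catalytic subunit of the immunoproteasome, was on the top side with 5104 and 2297 (-1.15).

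Chemokine and cytokine genes had 2 of 21 members at least 2-fold higher in light polysomes and 1 in the top fraction. Both shares (9.5% and 4.8%) were below the 11.4% and 12.4% of all genes. Ccl2, which draws monocytes, had 4383 and 18409 (2.07), and it remained past 2-fold under the 10 alternatives (1.09 to 2.14). Cklf had 244 and 601 (1.30). Il33, a nuclear alarmin made by stromal cells, had 79.8 and 38.4 (-1.05). Interferon-stimulated genes were lower, with a median of -0.23 that stayed below all genes under the alternatives (by 0.05 to 0.32). Stat2 had 268.5 and 106.5 (-1.33) and Zbp1 had 112 and 37.9 (-1.56), and these were the 2 of 28 past 2-fold on the top side, whereas Ifitm2 was the 1 past 2-fold on the light side.

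Among genes of energy metabolism, subunits of oxidative phosphorylation had a median of 0.32. Of 74, 11 were at least 2-fold higher in light polysomes (14.9%, near the 11.4% of all genes). In the top fraction 2 were (2.7%, below the 12.4% of all genes). The direction of the median relative to all genes changed under median centring and 75th-percentile scaling. Of the subunits of succinate dehydrogenase, the flavoprotein Sdha had 26.5 and 165 (2.64), which rests on a dim top signal and 1 probe. The iron-sulfur subunit Sdhb had 227 and 689 (1.60). The subunits Sdhc (0.67) and Sdhd (0.44) were within 2-fold. Cox7a2l, with 8064 and 3017 (-1.42), and Cox7c, with 7865 and 3681 (-1.09), were lowest, and both belong to families of complex IV subunits. The 3 mRNAs listed as mitochondrially encoded, which are translated inside mitochondria, were all at least 2-fold higher in light polysomes. COX2 had 27483 and 57748 (1.07), CYTB 1404 and 5442 (1.95) and ND4L 589 and 2633 (2.16). The files place the COX2 probe on chromosome 1 and not on the mitochondrial genome, so it may read a nuclear copy. The ND4L probe, at chrM:11370-11429 on mm8, is described in the files as NADH dehydrogenase 4. Its value may therefore belong to the ND4 mRNA and not to ND4L.

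Glycolytic genes had 3 of 18 members at least 2-fold higher in light polysomes (16.7%, against 11.4% of all genes). In the top fraction 0 were, against 12.4% of all genes. The glycolytic median of 0.33 stayed above all genes (0.20 to 0.55). Gapdh had 2373 and 5612 (1.24), and Aldoa, aldolase, had 1.05. Hk2, hexokinase 2, had 1632 and 1208 (-0.43). Sterol and fatty acid genes included Sqle, squalene epoxidase, with 426 and 1298 (1.61), and Nsdhl, with 40.6 and 114 (1.49), against Acat2, with 515 and 53.4 (-3.27), and Acly, with 574 and 269 (-1.10). Of 29, 5 were on the light side (17.2%, against 11.4% of all genes) and 2 on the top side past 2-fold (6.9%, against 12.4%).

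Several mRNAs with known translational control were placed as follows. The ferritin mRNAs, which iron-regulatory proteins hold off ribosomes when iron is scarce, were on the top side in the main scaling, with 55373 and 31028 (-0.84) for Fth1, which was 0.08 under loess with Aquantile, and 7867 and 3002 (-1.39) for Ftl1, which kept its sign under the 10 alternatives. Tfrc, the transferrin receptor, had 73.0 and 82.4 (0.17), and Aco1, which encodes an iron-regulatory protein, had 107 and 313 (1.55). Ftl2, which RefSeq lists as a ferritin pseudogene, had -1.15 and may share its probe's target with Ftl1. Atf4, whose upstream open reading frames limit its translation without stress, had 1486 and 819 (-0.86), and Ddit3, the stress factor CHOP, had 438 and 222 (-0.98). Both were lower still in heavy polysomes, with log2 heavy over light of -1.78 for Atf4 and -1.39 for Ddit3. Of the 15 mRNAs with such upstream frames, 2 were at least 2-fold higher in light polysomes, Cebpa (1.69) and Slc35a4 (1.67), and 1 in the top fraction, Eif5. The light share (13.3%) was near the 11.4% of all genes, and the top share (6.7%) was below the 12.4%. Cebpa rests on a dim top signal of 26.8 and was past 2-fold under 5 of 9 alternatives (lowest 0.67).

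In the polyamine pathway, Odc1, ornithine decarboxylase, had 1998 and 1978 (-0.01), Amd1 had 233 and 335 (0.52) and Oaz1, antizyme, had 6983 and 9955 (0.51), and the last pair turned negative under median centring (-0.37 and -0.43) and 75th-percentile scaling. Srm, spermidine synthase, was the 1 of 12 past 2-fold, with 754 and 2179 (1.53). That is 8.3% on the light side, against 11.4% of all genes. Among selenoproteins, whose synthesis recodes a stop codon, Sepw1, now Selenow, had 27830 and 4194 (-2.73), and its heavy signal was lower again (log2 heavy over light of -3.44). Gpx3, a secreted glutathione peroxidase, had 661 and 2208 (1.74), and Gpx1 had 7571 and 15137 (0.9996), just under the limit, and -0.06 under median centring.

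Histone genes had a median of 0.01, with 1 of 39 at least 2-fold higher in light polysomes and 4 in the top fraction (10.3%, below the 12.4% of all genes). The 4 on the top side encode linker histones, while 3 other linker histone genes, H1f0 (-0.01), Hist1h1c (-0.10) and Hist1h1b (-0.89), were within 2-fold. Hist1h1e had 5077 and 1725 (-1.56), Hist1h1a had 121 and 38.9 (-1.64), H1fx had -1.36 and Hist1h1d had -1.08. The gene on the light side was H3f3a, a replacement histone, with 1437 and 3327 (1.21). Replication and cell cycle genes had a median of 0.41, which stayed 0.34 to 0.45 above all genes. Past 2-fold, 5 of 39 were on the light side (12.8%, near the 11.4% of all genes) and 2 on the top side. Pcna, the sliding clamp, had 1278 and 3505 (1.46), whereas Mcm7, a helicase subunit, had 2723 and 1206 (-1.17) and Cenpa, the centromeric histone, had 1762 and 740.4 (-1.25).

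Zinc finger genes of the Zfp series had a median of -0.20, with 21 of 161 measured members (13.04%, near the background of 12.4%) at least 2-fold higher in the top fraction and 12 in light polysomes. Relative to all genes the median was 0.24 lower and stayed lower under the alternatives (0.07 to 0.53). Zfp644 had 926 and 131 (-2.83), but 0.21 when probes below background were kept. Zfp207, a spindle-associated protein with 92.2 and 332 (1.85 over 2 probes), and Zfp384 (1.48) were at the other end. Splicing regulators of the SR and hnRNP families were near the middle, with 2 of 43 on each side, among them Hnrpll (1.34) and Hnrpr (1.30) against Hnrpdl (-1.30) and Hnrpl (-1.06). Ddx5, an RNA helicase, had 2395 and 1622 (-0.56).

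Immediate early genes had 3 of 32 members at least 2-fold higher in light polysomes and 2 in the top fraction. Both shares (9.4% and 6.25%) were below the 11.4% and 12.4% of all genes. Myc had 116 and 362 (1.64), with 3 probes from 1.13 to 1.97, and Egr3 had 24.2 and 84.9 (1.81). Egr3 rests on a dim top signal and was past 2-fold under 4 of 9 alternatives (lowest 0.57). Ier2 had 574 and 169 (-1.76) and Jun had 348 and 185 (-0.91), while Egr1, with 785 and 688 (-0.19), and Fos, with 29.3 and 48.8 (0.74), were between. Of 8 measured clock genes, Arntl, the activator BMAL1, had 32.6 and 140.2 (2.11), and Clock, its partner, had 254.5 and 675 (1.41). Per2, a repressor of that pair, had 74.6 and 20.8 (-1.84), which rests on a dim light signal. It stayed past 2-fold under 7 of 9 alternatives and was as small as -0.03. Arntl rests on a dim top signal, but it stayed past 2-fold under its 9 alternatives (1.30 to 2.97).

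Cytoskeletal genes had 6 of 42 members at least 2-fold higher in light polysomes and 4 in the top fraction, near the 11.4% and 12.4% of all genes, and their median of 0.36 fell below that of all genes under median centring and 75th-percentile scaling. Tagln2, transgelin 2, had 2351 and 7795 (1.73), and Tubb2c, now Tubb4b, had 52.4 and 178 (1.77). Tubb2b had 414 and 97.9 (-2.08). For Actb the mean value of -2.32 covers probes that did not agree. The probe at chr5:143168706-143168765 on mm8, spotted 8 times, had 870 and 50.2 (-4.12), and the probe at chrX:147774990-147775049 had 20860 and 14490 (-0.53). Actg1, the other cytoplasmic actin, had 1.56, and Vim, vimentin, had 10703 and 8875 (-0.27). The proteasome list had 5 of 36 members past 2-fold on the light side (13.9%, near the 11.4% of all genes). On the top side it had 1 (2.8%, against 12.4%), which was Psmb10.

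RNAs without a coding function were placed apart from mRNAs in a comparison by RefSeq gene type, which was made after the values were seen and covered 10042 genes whose names matched. Of 133 long noncoding RNAs, 54 were at least 2-fold higher in the top fraction (40.6%) and 6 in light polysomes, with a median of -0.71. Of 9826 protein-coding genes, 920 (9.36%) and 1165 were past 2-fold, with a median of 0.09. Among brighter genes the gap was wider, with 24 of 42 long noncoding RNAs (57.1%) against 7.14% of 5095 protein-coding genes. The share of long noncoding RNAs past 2-fold on the top side ranged from 26.3% (35 genes, normexp) to 65.4% (87 genes, median centring), where that of protein-coding genes was 4.98% and 20.1%. Under the 10 alternatives the long noncoding median ranged from -1.33 to -0.47 and lay below the protein-coding median each time. Of 70 pseudogenes 21 were at least 2-fold higher in the top fraction (30.0%), and of 1043 genes whose names did not match a current symbol 375 were (36.0%).

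Long noncoding RNAs ran from -5.05 (1110006O24Rik) to 1.45 (9230114K14Rik), and better-known members within that range are given here. Zfas1, a host gene of small nucleolar RNAs listed as 1500012F01Rik, had 9902 and 2454 (-2.01). Neat1, the scaffold of nuclear paraspeckles listed as 2310043N10Rik, had 1037 and 317 (-1.71). Snhg16, listed as 1810032O08Rik, had 3385 and 1150 (-1.56), and Snhg3 had 1046 and 488 (-1.10). The imprinted RNAs Rian, with 528 and 142 (-1.90), and Mirg, with 109 and 19.2 (-2.51), were on the top side. Gtl2, the Meg3 RNA of the same locus, had 103 and 210 (1.03), on the light side. Tug1, with 105.4 and 224.5 (1.09), and Snhg8, with 2663 and 3866 (0.54), were also higher in light polysomes. Each of these except Mirg, which has no heavy value here, had a lower heavy than light signal. The median log2 heavy over light was -1.05 over 128 long noncoding RNAs and 0.08 over 9812 protein-coding genes. The log2 heavy over light was -3.03 for Gas5, -2.91 for Zfas1 (1500012F01Rik) and -2.46 for Snhg3.

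**Figure D4:**
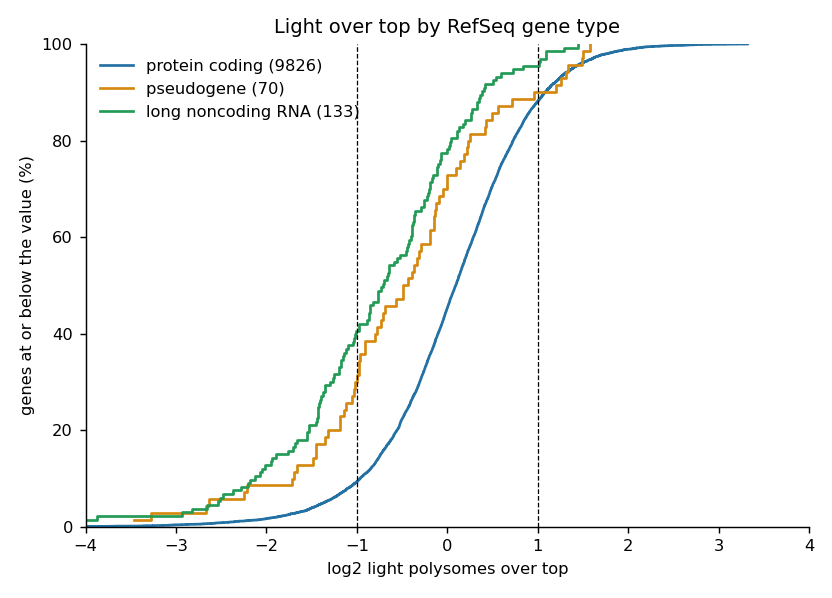
Cumulative share (percent) of genes at or below each log2 light over top value for 9826 protein-coding genes, 70 pseudogenes and 133 long noncoding RNAs, with dashed lines at 2-fold. At the left dashed line the long noncoding curve has reached 40.6% and the protein-coding curve 9.36%.

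The heavy polysome array showed where these genes had their highest signal, after quantile normalization over the 3 control arrays for 11054 genes. Of the 1259 genes at least 2-fold higher in light polysomes than in the top fraction, 897 (71.3%) were highest in heavy polysomes and 362 (28.8%) in light polysomes. Of 1355 genes at least 2-fold higher in the top fraction, 1343 (99.1%) were highest there. Since the rule fixed light over top in both sets, only the place of the heavy signal is new in these counts. Since no gene of the first set can be highest in the top fraction, its share is set against all 6626 genes highest in light or heavy polysomes, of which 67.1% were highest in heavy, near the 71.3%. Col4a2, with a log2 heavy over light of 2.58, Tubb2c, with 2.17, Gapdh, with 2.03, and Serpinb2, with 1.505, had higher signals in heavy than in light polysomes, and they encode a matrix chain, a tubulin, a metabolic enzyme and a protease inhibitor. Gng5 (-1.51) and Tfdp1 (-0.73), also of the first set, had lower signals in heavy than in light polysomes. So did Gpx1 (-1.91) and Oaz1 (-1.61), which are not in that set, since their light over top was within 2-fold.

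The same ratio was read from the Cy5 channel of the same arrays, which held RNA of cells given Eif4g3 siRNA. In 11212 genes measured there, 2145 were at least 2-fold higher in light polysomes (19.1%) and 2152 in the top fraction (19.2%). Over 10698 genes measured in both channels, Pearson's r across genes was 0.91 and Spearman's rho 0.90. The channels share arrays, probes and gradient pooling rules, and genes are not independent replicates. The spread was wider in the siRNA channel, with an SD of 1.26 against 0.93, and the slope of siRNA on control values was 1.24. Of 1119 genes on the light side in control cells and measured in both, 959 (85.7%) were so in siRNA cells, which is 47.7% of the siRNA genes on that side. Of 1346 genes on the top side, 1256 (93.3%) were so in siRNA cells, which is 61.7% of the siRNA genes on that side. The wider spread was also visible in single genes, with 3.58 in siRNA cells for Plp2, 3.83 for Serpinb2, 4.05 for Igfbp7, -3.67 for Rpsa and -6.39 for Rmrp. Long noncoding RNAs had a median of -0.95 in siRNA cells, with 61 of 123 on the top side past 2-fold. Dye and siRNA cannot be told apart, because every array carried the siRNA RNA in Cy5.

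**Figure D5:**
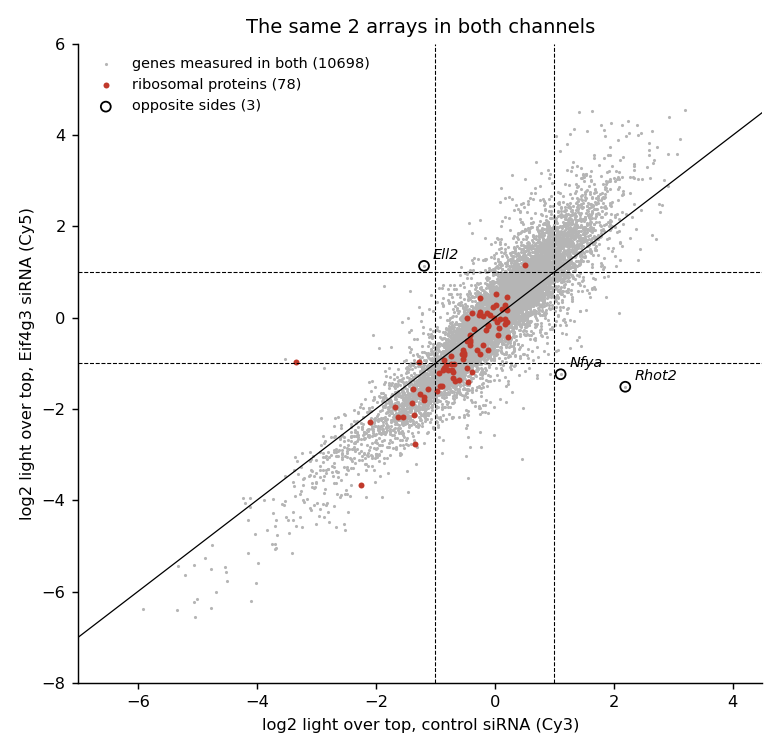
Log2 light over top in control cells (horizontal) and in Eif4g3 siRNA cells (vertical) for 10698 genes, with the line of equality and dashed lines at 2-fold. Ribosomal protein genes (red) lie along the cloud, with most members below 0 in this scaling and not under loess with Aquantile, and Ell2, Nfya and Rhot2 (circles) are the 3 genes past 2-fold on opposite sides.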

How the data were processed

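The authors deposited 1 scanner file per array, with the linear intensity of each spot. Per the file headers, the software was Feature Extraction 10.5.1.1 and probes were placed on mm8. Flags for background, saturation and outliers came from the same deposited files. From the green channel, mean signal minus median local background was averaged over the spots of a probe after outlier spots were left out, and the top and light arrays were quantile-normalized over the probes well above background on both. Log2 light over top was averaged over the probes of a gene, and a printed signal is the geometric mean over probes. For the place of the heavy signal, normalization covered 3 arrays. No p-value was computed, because each fraction had 1 array. Alternatives were median centring, 75th-percentile scaling, quantile normalization over 3 arrays, normexp with an offset of 50 and loess with Aquantile normalization in limma 3.58.1 (R 4.3.3), the software's processed signal, the brighter probes alone, no background filter, the brightest probe per gene and outlier spots kept. Steps were tested on simulated data.

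Named were the 15 highest and 15 lowest genes with at least 2 probes, all past 2-fold on the same side, the 8 highest and 8 lowest with 1 probe, all at or above the median signal and with a gene name, the 2 highest and 2 lowest of each list with at least 4 measured members, 31 genes set by name where measured, and the 3 with the widest gap between probes. Of the genes this rule names, 2 are not reported here. Other genes in the text were chosen after their values were seen. The members and lists were chosen with earlier results of these data known. The gene-type comparison and the 2 pyrimidine runs were chosen after the data were seen. The planned comparison by protein length was not run, since no protein table was used here. The deposited value table was not used, as it holds ratios of the channels.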

Additional observations from a re-analysis of the deposited data

Results flagged for a closer look

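Among genes measured in both channels, 3 were past 2-fold on the light side in one siRNA group and past 2-fold on the top side in the other. Ell2, an elongation factor of RNA polymerase II, had a log2 light over top of -1.19 in control cells and 1.14 in Eif4g3 siRNA cells, with control signals of 252.5 in the top and 111 in light polysomes from 1 probe. Nfya, a subunit of the CCAAT-binding factor, had 1.11 and -1.24, with control signals of 37.8 and 81.5 over 2 probes. Rhot2, a mitochondrial GTPase, had 2.19 and -1.51, but its probes disagreed in control cells, at 5.56 and -1.17. With 1 sample per group and fraction, the difference between siRNA groups was not tested.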

How the results depend on the processing

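The count of genes at least 2-fold higher in light polysomes was 1259, and that in the top fraction 1373. Median centring gave 636 and 2691, and 75th-percentile scaling gave 888 and 2271. Normexp with an offset of 50, which pulls dim ratios towards 0, gave 608 and 803. The brighter probes alone, with 6176 genes left, gave 598 and 621, and no background filter, with 27719 genes, gave 2251 and 2758. Loess with Aquantile gave 785 on the light side and 1184 on the top side. The remaining 4 alternatives stayed within 1.5 times of both counts. Of 137 named genes past 2-fold, 131 kept their sign under every alternative and 82 also stayed past 2-fold under each. Of 55 named genes within 2-fold, 26 changed sign under at least 1 alternative. Among those past 2-fold, the sign changed for Pgam1 (-0.21) and Spp1 (-0.34) under median centring, for Pgam1 (-0.059) and Spp1 (-0.19) under 75th-percentile scaling, for Eif2c4 (0.39) and Zfp644 (0.21) without the background filter, and for Eif5 (0.23) and Rhot2 (-1.17) with the brightest probe. Of 33 lists, 17 stayed on the same side of the median of all genes under every alternative and 16 did not, ribosomal proteins among the latter under loess with Aquantile. The causes were not tested. The dim top array limits the comparison to genes above its background. No paired analysis was possible because each group had 1 array.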

Other observations

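Some genes were well above background in 1 of the 2 fractions alone, and for these the bright signal was divided by a floor for the dim side, the larger of the signal of that probe and the least signal counted as well above background. This held for 3231 genes detected in light polysomes and not in the top fraction, of which 1172 had a bound of at least 2-fold, and for 266 detected in the top fraction alone, of which 193 had such a bound. The top array was dimmer, so these counts do not compare the fractions. Atp6ap1, an accessory subunit of the vacuolar ATPase, had a light signal of 334 and was at least 13.8-fold higher in light polysomes. Emilin1, an elastin-associated matrix glycoprotein, was at least 9.10-fold higher, and Arhgap1, a GTPase-activating protein, at least 11.1-fold. On the other side, Cdcp1, a transmembrane glycoprotein, had a top signal of 440 and was at least 27.6-fold higher in the top fraction, and Usp29, an imprinted ubiquitin protease gene, at least 13.8-fold.

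Of 2909 genes with at least 2 measured probes, 67 (2.30%) had probes past 2-fold on opposite sides. Pdpk1, a kinase that activates AKT, had probes at -4.65 and 2.40, Rhot2 at 5.56 and -1.17, and Tmem165, a Golgi membrane protein, at -4.36 and 1.32. For Tmem165 the files place the probes on opposite strands of mm8 chromosome 5, at chr5:77258353-77258412 (minus) and chr5:77283659-77283718 (plus). Whether these probes read different transcripts was not tested.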
